A study of Mus musculus with 4 samples.

Results

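The intelectin gene Itln1 and 7 genes of the SLAM receptor family (Cd244, Ly9, Slamf1, Slamf6, Slamf7, Cd48 and Cd84) lie together on distal mouse chromosome 1, and their DNA copy level was measured in 4 liver tumours. The genes were selected by name among the probes of one window of that chromosome, because earlier values of these arrays were high there in 2 tumours, so their tumour over reference ratios are descriptions and carry no test. Of the 8 genes, 7 had a probe under their name, with 18 probes in all, and Slamf1 is not analysed here. The files name 21343 genes with an autosomal probe in the whole data set. The window held 144 probes, from 173016015 to 174498026 on the mouse build mm9, and 126 of them carried no name of these 8 genes and served as the local level.

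Each array carried 2 DNAs. Tumour DNA from 1 mouse was labelled with Cy5 (red) and reference DNA with Cy3 (green), so that both competed for the same oligonucleotide probes and log2 of red over green gave their relative copy level. Per the labels, both DNAs were Trp53-/- and male, the tumour channel was liver tumour, and the reference was spleen, pooled from 3 littermates per the series design. The protocol for dye labelling instead calls the reference liver, and the descriptions do not say whether the same pool was used on all arrays. The X and Y levels of the reference on array 1, given below, were unlike those on the other arrays, so the reference channels were not alike on all 4. The series title describes the mice as C57BL/6J with Trp53 lost in the liver only. The promoter behind that loss and the animals' ages were not given in the sources used here, and the dyes were not swapped. The 4 tumours form 1 group, and their numbers 1 to 4 are only names. Genomic DNA holds no expression, so the tissue labels could not be checked by markers.

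Intelectins are secreted, sugar-binding lectins of vertebrates. They recognise glycans of microbial surfaces, and in the gut they are made by goblet and Paneth cells. SLAM family receptors are immunoglobulin-type membrane proteins of blood cells. Most of them bind a copy of themselves on a neighbouring cell, and they signal through the small adaptors SAP and EAT-2. Cd244 (2B4) on natural killer and T cells instead binds Cd48, a lipid-anchored member of the same family. The SLAM cluster is also known for its differences between inbred strains. C57BL/6 carries a shorter form of it, with fewer Cd244-like genes than strains of the BALB/c type, and some other strains hold additional intelectin genes that C57BL/6 lacks. The mm9 sequence, from which the array's positions come, is that of C57BL/6. These are facts of the strains in general, since the haplotype of the DNAs on these arrays was not determined here.

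The sequences that carry the measurement are the probes themselves. Shown here are those on which the results turn, namely the left-hand probe at which both high tumours passed the threshold, both Itln1 probes, the pair of unnamed probes between Itln1 and Cd244 with the highest readings, and the 4 Cd244 probes. They are written 5′ to 3′ as deposited, in lower case because no base is singled out. The probe labelled left flank lies inside the high stretch described below, near its left end. The files do not state the strand of the probes. Of 583 probes anywhere on the array that matched a RefSeq promoter sequence (assembly GRCm38), 575 lay on its plus strand.
Left flank probe (chr1:173444942-173445001): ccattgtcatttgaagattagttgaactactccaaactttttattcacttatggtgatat
Itln1 probe a (chr1:173448669-173448727): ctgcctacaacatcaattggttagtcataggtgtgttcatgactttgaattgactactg
Itln1 probe b (chr1:173459315-173459374): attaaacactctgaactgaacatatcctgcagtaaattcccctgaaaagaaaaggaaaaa
Unnamed probe a (chr1:173470547-173470606): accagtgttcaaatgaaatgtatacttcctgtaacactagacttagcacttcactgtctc
Unnamed probe b (chr1:173476148-173476207): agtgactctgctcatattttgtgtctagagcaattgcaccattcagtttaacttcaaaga
Cd244 probe a (chr1:173493944-173494003): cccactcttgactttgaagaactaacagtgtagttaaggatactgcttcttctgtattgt
Cd244 probe b (chr1:173503955-173504014): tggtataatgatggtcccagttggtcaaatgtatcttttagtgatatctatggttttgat
Cd244 probe c (chr1:173508451-173508510): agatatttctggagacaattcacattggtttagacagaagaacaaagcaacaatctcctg
Cd244 probe d (chr1:173514894-173514953): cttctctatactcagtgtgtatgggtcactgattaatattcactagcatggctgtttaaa
Whether a probe lies in an exon or an intron was not analysed here, for lack of an annotation of mm9. In the RefSeq gene order (GRCm38, used for order only), F11r stands to the left of Itln1. Cd244, Ly9, Slamf7, Cd48, Slamf1, Cd84 and Slamf6 follow to its right. The 11 probes of the high stretch described next had a mean GC content of 36.1%, against 37.2% in the window and 36.5% over all autosomes.

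The arrays differed in quality and 2 channels went against their sex label. The derivative log ratio spread, a measure of noise between neighbouring probes, was 0.12, 0.36, 0.14 and 0.16 (log2) on the arrays of tumours 1 to 4, and the file header placed that of tumour 2 outside its accepted range. Between 98.9% and 99.9% of the spots were well above background in each channel. Relative to the autosomes, the mean reference level on array 1 was -0.07 for X and -3.38 for Y, and the tumour level on array 4 was -0.08 for X and -3.11 for Y. In the other 6 channels X lay between -0.99 and -0.89 and Y between -1.15 and -0.74. The ratios of tumours 1 and 4 correlated at -0.61 over all placed probes and at 0.18 over the autosomal probes, and their direction was kept because the labels state the dyes. The 2 Trp53 probes read -0.53 and 0.14 in tumour 1, -0.78 and 0.51 in tumour 2, -0.07 and 0.31 in tumour 3, and -0.76 and 0.17 in tumour 4.

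Itln1 had the highest ratio of all autosomal genes with at least 2 probes in both tumour 2 and tumour 3. Its 2 probes averaged a log2 ratio of 0.12 in tumour 1, 1.96 in tumour 2, 1.53 in tumour 3 and 0.11 in tumour 4. As linear ratios these are 1.09, 3.88, 2.89 and 1.08. The values of tumours 2 and 3 lay far from the other two, and the mean of 0.93 ± 0.96 (SD, n = 4) described no single tumour. The mean was 1.20 without tumour 1, 0.59 without tumour 2, 0.73 without tumour 3 and 1.20 without tumour 4. The arrays of tumours 1 and 4 are those with a channel against its sex label. Ranked among 13389 autosomal genes with at least 2 probes, Itln1 was number 1 in tumour 2 and number 1 in tumour 3, but 1570 in tumour 1 and 1502 in tumour 4.

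The 2 Itln1 probes gave different heights. At probe a the ratio was 0.13, 2.49, 1.85 and 0.28 in tumours 1 to 4. At probe b it was 0.11, 1.42, 1.20 and -0.06. Both probes were high in the same tumours.

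Cd244, the natural killer cell receptor next to Itln1, was high in the same 2 tumours but by less. Its 4 probes averaged 0.10, 0.72, 0.62 and -0.03, or linear ratios of 1.07, 1.65, 1.54 and 0.98. The mean was 0.35 ± 0.38 (SD, n = 4). It was 0.44, 0.23, 0.26 and 0.48 without tumour 1, 2, 3 and 4 respectively. The gene mean hid a split between the probes. Probe a read 0.07, 1.17, 1.35 and -0.12, and probe c read 0.04, 1.15, 0.96 and 0.11. Probe b, which lies between them, read 0.08, 0.13, 0.06 and -0.08. Probe d, the farthest from Itln1, read 0.19, 0.45, 0.12 and -0.05. High and near-zero probes therefore alternated within the gene, alike in tumours 2 and 3 for probes a to c.

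No other measured gene of the cluster reached 0.5 in any tumour. Ly9, a receptor of T and B cells that binds itself, averaged -0.01, 0.10, 0.01 and 0.01 over 3 probes, with a mean of 0.03 ± 0.05 (SD, n = 4). It is the gene nearest to the high stretch on its right. Slamf7 (CRACC), a receptor of natural killer and plasma cells, read 0.06, 0.01, 0.12 and -0.08 over 2 probes, and its mean was 0.03 ± 0.08 (SD, n = 4). Cd48, the ligand of Cd244, read 0.04, 0.12, 0.01 and -0.07 over 2 probes, with a mean of 0.02 ± 0.08 (SD, n = 4). These 3 genes had no common direction across tumours, and their means lay within 1 SD of 0.

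The receptors farther to the right were also below 0.5 in every tumour, but in tumour 2 both stood above the local median of 0.05. Cd84, carried by B cells, platelets and mast cells, read 0.07, 0.35, -0.09 and 0.03 over 3 probes, for a mean of 0.09 ± 0.19 (SD, n = 4). In tumour 2 that value rested on 1 probe at 0.79, with the other probes at 0.17 and 0.09. Slamf6 (Ly108), a receptor of T and natural killer cells, read 0.12, 0.31, 0.13 and 0.11 over 2 probes, for a mean of 0.17 ± 0.10 (SD, n = 4). Slamf6 was above 0 in all 4 tumours and highest in tumour 2, the noisiest array. The spread of all 13389 genes around their median was 0.12, 0.26, 0.10 and 0.13 (SD, log2) in tumours 1 to 4.

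Counted at a ratio of 0.5 or more, 2 of the 7 measured genes passed in tumour 2 and 2 of 7 in tumour 3, and in both tumours they were Itln1 and Cd244. Over all 13389 autosomal genes with at least 2 probes, 3.35% passed in tumour 2 and 0.0598% in tumour 3. In tumours 1 and 4 none of the 7 passed, against 0.0299% and 0.105% of all genes. At -0.5 or less stood 0 of the 7 in every tumour, against 0.134%, 2.27%, 0.0373% and 0.217% of all genes in tumours 1 to 4. The median over the 7 genes was 0.07, 0.31, 0.12 and 0.01, and over all genes 0.00, 0.00, -0.01 and -0.02. Since the same ratios chose the genes, nothing is read from these counts.

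**Figure D1:**
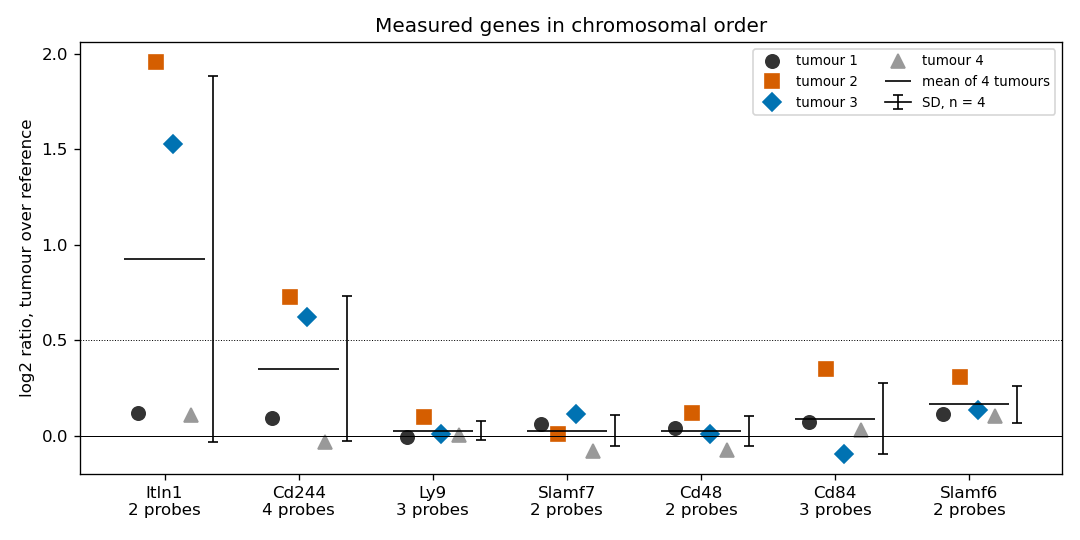
Log2 ratio of tumour over reference for the 7 measured genes, in chromosomal order from left to right. Each symbol is the mean over a gene's probes in 1 tumour, the horizontal line is the mean of the 4 tumours and the bar beside it the SD (n = 4). Itln1 (1.96 and 1.53) and Cd244 (0.72 and 0.62) lie above the dotted line at 0.5 in tumours 2 and 3, and no other gene crosses it.

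The high stretch was mapped with 1 rule on every autosome. A run was at least 5 consecutive placed probes at or above 0.5, with single lower probes bridged, and a mean of at least 0.5. In tumour 3 it ran from 173441945 to 173508510 and held 11 probes with a mean of 1.19. In tumour 2 it ran from 173444942 to the same right end and held 10 probes with a mean of 1.21. No run was found there in tumours 1 and 4. The longer of the mapped stretches spans 66.6 kb. It holds 2 Itln1 probes, 3 of the 4 Cd244 probes and 6 probes without a gene name, and no other gene name. Over its 11 probes, the mean ratio was 0.13, 1.15, 1.19 and -0.03 in tumours 1 to 4.

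The left edge was stepped in both tumours, and the right end fell at the same probe in both. The probe 12070 bp to the left of the stretch read -0.08, 0.02, 0.18 and 0.01. The first probe inside, at 173441945, read 0.14, 0.47, 0.61 and 0.12, so tumour 2 stood just below the threshold there. The next probe, at 173444942, read 0.11, 0.81, 1.19 and -0.08. On the right the last probe inside was Cd244 probe c, and the first one outside was Cd244 probe d, which begins 6383 bp farther on. Across that gap the ratio went from 1.15 to 0.45 in tumour 2 and from 0.96 to 0.12 in tumour 3. The nearest named gene on the left, F11r (junctional adhesion molecule A), read 0.17, 0.30, 0.11 and 0.27 over 2 probes.

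The ratio was not even within the stretch. In tumour 2 it was highest at Itln1 probe a, at 2.49, and in tumour 3 at unnamed probe a, between Itln1 and Cd244, at 2.43. Unnamed probe a read 0.10, 2.18, 2.43 and -0.02 in tumours 1 to 4, or linear ratios of 1.07, 4.52, 5.37 and 0.99. Its right-hand neighbour, unnamed probe b, read 0.36, 1.65, 1.98 and -0.02. The next 2 probes were lower, at 0.61 and 0.54 in tumour 2 and at 1.20 and 0.28 in tumour 3, and Cd244 probe a was high again. The SD over the 11 probes was 0.74 in tumour 2 and 0.71 in tumour 3, against 0.09 in tumour 1 and 0.15 in tumour 4. In each of tumours 2 and 3, 9 of the 11 probes stood at or above 0.5.

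**Figure D2:**
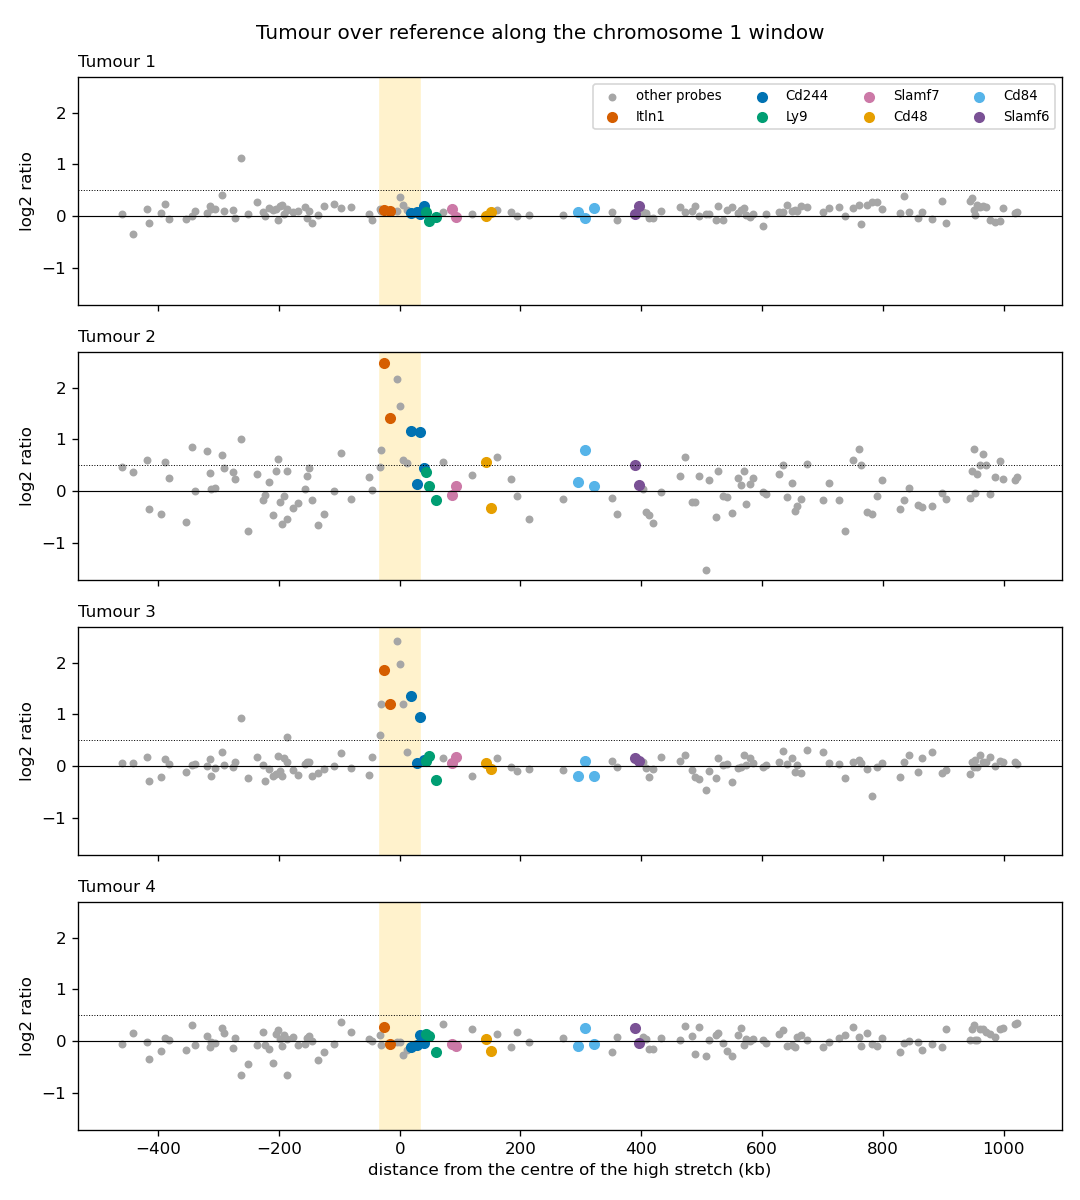
Log2 ratio of each of the 144 window probes in the 4 tumours, against distance in kb from the centre of the high stretch (shaded). Coloured points are probes of the 7 measured genes, grey points all others, and the dotted line marks 0.5. In tumours 2 and 3 the highest points, 2.49 and 2.43, are inside the shaded band, other points lie above 0.5 outside it, and in tumours 1 and 4 the band holds no point at 0.5.

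The rest of the window lay near 0. The median of the 126 local probes was 0.10, 0.05, 0.03 and 0.02 in tumours 1 to 4. The stretch stood above this level by 0.04, 1.09, 1.16 and -0.05, with a mean difference of 0.56 ± 0.66 (SD, n = 4). The mean difference was 0.73, 0.38, 0.36 and 0.76 without tumour 1, 2, 3 and 4 respectively. With the 6 unnamed stretch probes taken out, 120 local probes were left. At or above 0.5 stood 1, 20, 2 and 0 of them and at or below -0.5 stood 0, 10, 1 and 2, and their SD was 0.15, 0.42, 0.18 and 0.19. Tumour 2 thus had scattered high and low probes outside the stretch, and tumour 3 had 2 high and 1 low.

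Among the other 41 gene names of the window, the ratio ranged from -0.08 to 1.12 in tumour 1, -1.52 to 1.01 in tumour 2, -0.57 to 0.94 in tumour 3 and -0.66 to 0.27 in tumour 4. Usp21, a ubiquitin-specific protease gene with 1 probe at 173212850, was the only one at or beyond 0.5 in either direction in at least 2 tumours, with 1.12, 1.01, 0.94 and -0.66. Its reference level was 1.08, 0.93, 0.85 and 1.42 on arrays 1 to 4, and its tumour level was 2.21, 1.96, 1.80 and 0.77. That is a pattern other than the stretch shows, since array 1 was high and array 4 low.

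Splitting the ratio into its channels showed where the difference lay. For each array and channel, the log2 level was centred on that channel's autosomal median and compared with the same probe on the other arrays. The tumour level of Itln1 was 1.98, 2.21, 1.97 and 1.98 on arrays 1 to 4. The reference level was 1.85, 0.23, 0.43 and 1.87. The tumour level spanned 1.97 to 2.21, and the low readings on arrays 2 and 3 were in the reference channel.

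Cd244 showed the same arrangement. Its tumour level was 0.88, 0.84, 0.76 and 0.84, and its reference level 0.78, 0.10, 0.12 and 0.87. For Ly9, just outside, the tumour level was 0.05, 0.08, 0.01 and 0.06 and the reference level 0.04, -0.04, -0.02 and 0.04, with no array apart. The reference level of Slamf6 was 0.09, 0.12, 0.24 and 0.26, of Slamf7 -0.38, -0.30, -0.34 and -0.15, of Cd48 -0.29, -0.44, -0.44 and -0.49, and of Cd84 0.71, 0.69, 0.81 and 0.86. None of these 4 receptors had a reference level that set arrays 2 and 3 apart as at Itln1.

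**Figure D3:**
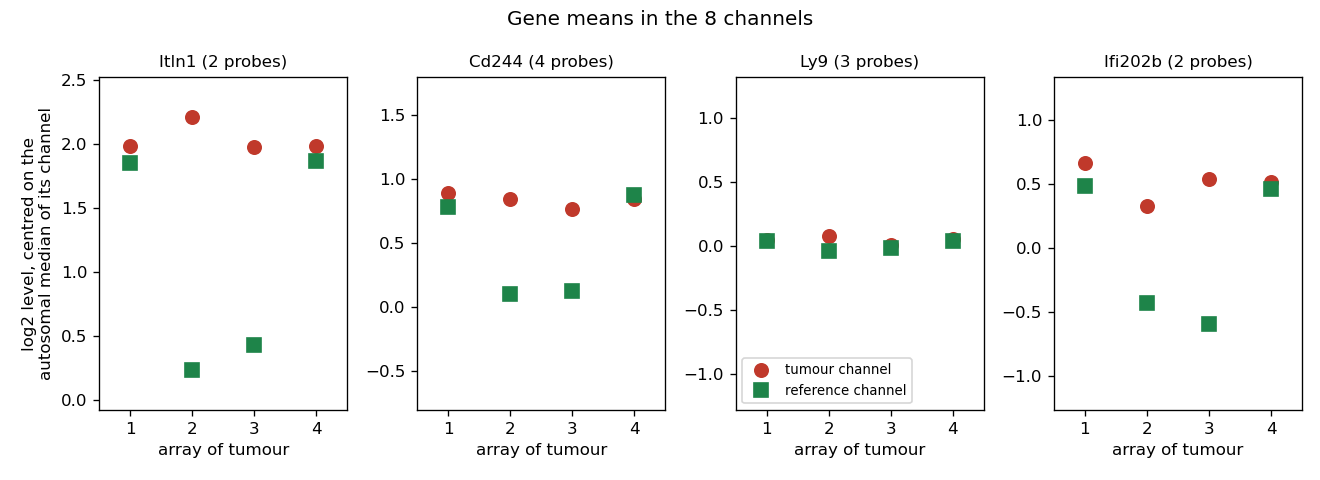
Log2 level of Itln1, Cd244, Ly9 and Ifi202b (a gene outside the window) in both channels of the 4 arrays, each centred on the autosomal median of its channel, as means over the probes given. All panels span the same number of log2 units. The tumour channel of Itln1 stays between 1.97 and 2.21, while its reference channel is at 0.23 and 0.43 on arrays 2 and 3.

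Over the 11 stretch probes, each channel was set against the median of the same probe over both channels of the other 3 arrays. On average over the 11 probes, the tumour channel differed from it by 0.22, -0.01, 0.03 and 0.10 on arrays 1 to 4. The reference channel differed by 0.08, -1.17, -1.18 and 0.12. At single probes the reference channel on array 2 lay between -2.03 and 0.12, and on array 3 between -2.33 and -0.15. The tumour channel lay between -0.41 and 0.56 on array 2 and between -0.26 and 0.22 on array 3. Its highest value on array 2, 0.56, was at Itln1 probe a. Over the 120 local probes outside the stretch, the median difference, not the mean, was taken. It was between 0.00 and 0.07 for the tumour channel and between -0.07 and 0.01 for the reference channel. All 11 probes were well above background in both channels of all arrays and none was saturated.

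**Figure D4:**
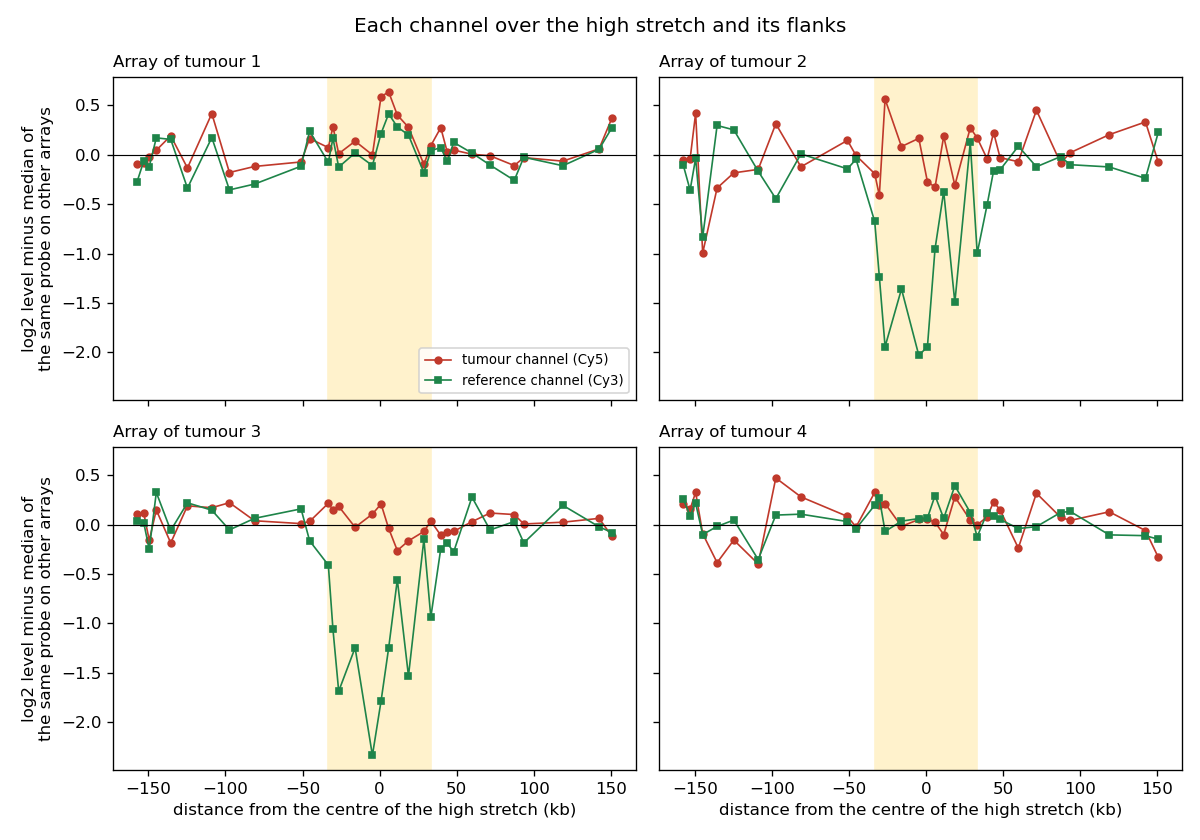
Level of the tumour channel (red circles) and the reference channel (green squares) at each probe within 160 kb of the centre of the stretch (shaded), as log2 difference from the median of that probe over both channels of the other arrays. On the arrays of tumours 2 and 3 the green line reaches -2.03 and -2.33 inside the band and the red line does not follow it. On the arrays of tumours 1 and 4 both lines stay between -0.18 and 0.63 inside the band.

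Relative to the other arrays, the reference level was lowest at unnamed probe a and highest at Cd244 probe b on both array 2 and array 3. At unnamed probe a the reference level was 1.65, -0.27, -0.57 and 1.77 on arrays 1 to 4, and the tumour level 1.76, 1.93, 1.87 and 1.76. At Cd244 probe b the reference level was 0.53, 0.75, 0.57 and 0.75 and the tumour level 0.62, 0.90, 0.64 and 0.68, so that neither channel set an array apart. Over the 11 stretch probes, the mean reference level was -0.06 on array 2 and -0.07 on array 3, thus near the autosomal median of its channel. In the other channels of the 4 arrays the mean level lay between 1.09 and 1.24. Whether the former were lowered or the latter raised was not tested. A lower copy number in every pooled mouse, a missing segment in some of them and weaker binding of a differing sequence to the probes cannot be told apart from these levels. The part of strain haplotypes was not tested. Arrays 1 and 2 shared 1 slide and arrays 3 and 4 the other, so each slide held 1 array with the low reference level and 1 without it. The reference of array 1 went against its sex label, and those of arrays 2, 3 and 4 did not.

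The run rule found few other such places in the cleaner arrays. Over the autosomes it gave 1, 186, 5 and 11 runs in tumours 1 to 4. Most of those of tumour 2 lay along chromosome 15, from 5552897 to 103324322. The stretch had the highest mean of all runs in both tumour 2 and tumour 3. It was also the longest of the 5 in tumour 3 by number of probes, and number 14 by that count in tumour 2. Most runs of tumour 2 with more probes lay on chromosome 15.

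The genes outside the window with values closest to those of the pair were sought among 13361 autosomal genes with at least 2 probes. The target was the mean of Itln1 and Cd244, at 0.11, 1.34, 1.08 and 0.04 in tumours 1 to 4, and likeness was the root mean square difference over the 4 tumours. The nearest was Ifi202b, an interferon-inducible gene of the HIN-200 family on chromosome 1 whose presence and expression are known to vary between mouse strains. Its difference from the target was 0.30. Its 2 probes, between 175895321 and 175901609, averaged 0.17, 0.74, 1.11 and 0.04. Their sequences are shown because both behaved like the stretch.
Ifi202b probe a (chr1:175895321-175895380): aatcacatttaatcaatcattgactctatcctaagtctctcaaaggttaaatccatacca
Ifi202b probe b (chr1:175901550-175901609): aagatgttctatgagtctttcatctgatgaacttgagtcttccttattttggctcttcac
The tumour level of Ifi202b was 0.66, 0.32, 0.53 and 0.51 on arrays 1 to 4 and its reference level 0.49, -0.43, -0.59 and 0.46. Here too the reference channel, not the tumour channel, set arrays 2 and 3 apart.

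The next 4 genes all lay on chromosome 15, which held most of the runs of tumour 2, and were less alike. Krt77, an epidermal keratin, read 0.17, 1.37, 0.32 and 0.45, at a difference of 0.43. Cyb5r3, cytochrome b5 reductase, read 0.11, 0.62, 0.59 and 0.29, at 0.45. BC062953 read 0.17, 0.94, 0.31 and 0.35, and Zfp641, a zinc finger gene, 0.31, 0.85, 0.33 and 0.21. In tumour 4 these 4 genes read 0.21 to 0.45, against 0.04 for the target. The reference level of Cyb5r3 was -0.29, -0.81, -0.82 and -0.44 on arrays 1 to 4 and its tumour level -0.17, -0.18, -0.22 and -0.14. At that gene, too, the reference channel set arrays 2 and 3 apart. For Krt77, BC062953 and Zfp641, array 2 had both the lowest reference level and the highest tumour level.

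Other genes of the same pathways were listed and counted at the same threshold. Of 20 listed relatives and signalling partners of the SLAM family, 18 had an autosomal probe. In tumour 2 the phosphatase gene Ptpn6 reached 0.57, and no other value of the 18 genes lay at or beyond 0.5 in either direction in any tumour. Over all genes with at least 2 probes, 3.35% were high and 2.27% low in tumour 2. In the other tumours either share lay between 0.0299% and 0.217%. At such shares few or none of 18 genes would be called, so nothing is read from the count. The medians of the 18 genes were 0.05, 0.15, -0.03 and -0.02. The EAT-2 adaptor genes, Sh2d1b1 and Sh2d1b2, read 0.06, 0.00, 0.09 and -0.14, and 0.09, -0.38, -0.09 and -0.34. Cd2, an older relative of the family on chromosome 3, read 0.13, 0.41, 0.02 and 0.06.

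Of 13 listed intelectin relatives and goblet or Paneth cell secretions, 7 were measured on autosomes. None lay at or beyond 0.5 in either direction, and the values ranged from -0.33 to 0.40. At the shares over all genes given above, few or none of 7 genes would be called, so nothing is read from this. Neither of the further intelectin names in that list had an autosomal probe under that name. Of 20 listed immune genes, most of them beside the window on distal chromosome 1, 15 were measured, and 1 of these (Fcrl5) lies on chromosome 3. In tumour 2 the count was 2 high and 3 low, in tumour 3 it was 1 high, and in tumours 1 and 4 it was 0. Over all genes, as given above, 3.35% were high and 2.27% low in tumour 2, but that background holds only genes with at least 2 probes. Of the called list genes, Fcrlb, Fcrla and Apcs rest on 1 probe each. Ifi202b was the only gene of the 3 lists beyond 0.5 in at least 2 tumours. Its neighbours of the same family read 0.13, 0.04, 0.39 and 0.03 (Ifi203), 0.15, 0.11, -0.19 and 0.07 (Ifi204) and -0.05, -0.42, -0.03 and -0.07 (Ifi205), and did not share its pattern.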

How the data were processed

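The deposited files hold Agilent Feature Extraction output with mm9 positions (version 12.0.1.1 per the file headers, 12.0.0 per the submitters' processing notes). Per the file headers, the processed intensity of either channel had its background subtracted and was scaled by 1 linear dye factor within the array, so an uneven dye effect would remain. The deposited log10 ratio served as an alternative.

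From these, log2 of processed red over green was computed. Flagged spots were left out (82 to 258 of 174317 per array), the spots of probes printed 5 times were averaged, and the median of the 159076 autosomal probes was set to 0. Gene values are means over probes. Run mapping was tried on simulated stretches of even height. The stretch mapped here was uneven, so nothing about its ends is read from that trial. No comparison was tested, and Dixon's limit served only to pick out single tumour values. Alternatives were normexp (limma 3.58.1, R 4.3.3), other centrings, spot filters, removal of an intensity trend, medians over probes, other thresholds and leaving out each tumour. Python 3.11.15, numpy 2.4.6 and pandas 2.3.3 were used.

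The members and lists were chosen with earlier results of these data known. Named genes were the members, the nearest names to the stretch, window genes and list members beyond 0.5 in at least 2 tumours, and the 5 genes with the nearest pattern. Other examples are named by role, after their values were seen. The tumours came from individual mice, per the series design, and the number of arrays, 4, limits the precision.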

Additional observations from a re-analysis of the deposited data

Results flagged for a closer look

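In 17 sets of 4 tumour values, the gap between the outermost value and its nearest neighbour was set against Dixon's limit for 4 samples, which chance passes in about 5% of sets that were not chosen by their values. Many of these sets were so chosen, so that share does not hold for them and the limit only picks out values to look at again. It was passed 3 times. For Ly9 the value of tumour 2, 0.10, stood apart, with a gap of 0.84 of the whole range, although that range was small. For Slamf6 the value of tumour 2, 0.31, stood apart with a gap of 0.86 of the range. In both cases tumour 2 is the array with the highest noise. For Usp21 the value of tumour 4, -0.66, stood apart with a gap of 0.90 of the range and rests on 1 probe. Itln1 and Cd244 were not among them, since their values lay near each other in pairs.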

How the results depend on the processing

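Of the alternative settings, 1 was added after seeing the data (stretch probes taken out of the local level, which gave a difference of 0.57). Over all settings, 186 values of the gene means, the stretch and its channels kept within the spread of the tumours, or within 1.5 times for counts, and 7 did not. Many of the 186 could not have come out otherwise. Leaving out 1 of 4 tumours cannot move a mean by the whole spread, and recentring cannot move the stretch difference. The deposited ratio is nearly the same quantity as the main one. The count of 186 is therefore no measure of robustness. With normexp the tumour channel of the stretch stood at 0.34, -0.18, 0.14 and 0.23 from the other arrays on arrays 1 to 4, and without centring at 0.11 on array 2. The reference channel with normexp was 0.15, -1.47, -1.44 and 0.14. A run threshold of 0.8 left 5 stretch probes in tumour 2, and bridging no probes left 7 in tumour 3. The cause of these shifts was not tested. Leaving out each tumour in turn moved the Itln1 mean between 0.59 and 1.20, the Cd244 mean between 0.23 and 0.48 and the stretch difference between 0.36 and 0.76. Over the other settings Itln1 lay between 0.76 and 1.15 and Cd244 between 0.28 and 0.55, and the means of Ly9, Slamf7, Cd48 and Cd84, all near 0, changed sign in some. Genes at or above 0.5 numbered 4, 449, 8 and 14 in tumours 1 to 4, at or above 0.3 they numbered 79, 1621, 32 and 131, and at or above 1 they numbered 0, 8, 2 and 3. At or below the negative thresholds they numbered 18, 304, 5 and 29, then 122, 1280, 74 and 327, then 3, 8, 4 and 0. At 0.3, Slamf6 and Cd84 joined Itln1 and Cd244 in tumour 2, and at 1 only Itln1 was left in tumours 2 and 3. No paired analysis was possible because the tumours form 1 group.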

Other observations

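With a rule chosen after the values were seen, each channel of every autosomal probe was set against the same channel of the other 3 arrays, and probes at least 1 log2 unit lower were counted. In the reference channel these numbered 50, 4319, 27 and 1758 on arrays 1 to 4, and in the tumour channel 119, 4086, 35 and 1703. Arrays 2 and 3 shared 12 such probes in the reference channel and 0 in the tumour channel. Of the 12, 9 lay on chromosome 1 and 7 of them in the stretch, including both Itln1 probes and Cd244 probe a. The other 2 on chromosome 1 were a probe each of Ifi202b and Sdccag8. The remaining 3 lay on chromosomes 7, 13 and 14, and the last of them carries the name Mbnl2. Arrays 1 and 3, 1 and 4, and 3 and 4 shared 0 in the reference channel, arrays 1 and 2 shared 13, none in the stretch, and arrays 2 and 4 shared 1602, none in the stretch.

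A second run of tumour 3 resembled the stretch and was picked out after its values were seen. The only gene name among its probes was Sdccag8, a gene for a centrosomal protein. The run covered 9 probes, from 178753922 to 178848750 on chromosome 1. Its mean ratio was 0.17, 0.71, 0.88 and -0.02 in tumours 1 to 4. Against the other arrays its reference channel stood at 0.16, -0.88, -0.85 and 0.10, and its tumour channel at 0.34, -0.15, 0.04 and 0.08. The 3 other runs of tumour 3, at Tbc1d5 on chromosome 17 and at BC072564 and AK089776 on chromosome 7, were high in that tumour at 0.55, 0.67 and 0.66. They read -0.06, 0.18 and 0.38 in tumour 2 and -0.12, -0.61 and -0.67 in tumour 1. Within the AK089776 run, tumour 2 had a shorter run of 5 probes with a mean of 0.59. Against the other arrays, the reference channel stood at 0.45, -0.46, -0.32 and 0.28 at BC072564 and at 0.31, -0.68, -0.35 and 0.17 at AK089776. The tumour channel stood at -0.15, -0.27, 0.37 and 0.17, and at -0.36, -0.29, 0.33 and 0.30.

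A pair of window probes outside the stretch, picked out after their values were seen, were very low in both channels of the same arrays. At a BC055109 probe (173248507) the tumour and reference levels were -5.76 and -5.60 on array 2 and -2.40 and -2.59 on array 4, against -0.05 and -0.14 on array 1. At an unnamed probe (173964953) they were -5.75 and -5.56 on array 2 and -2.25 and -2.01 on array 4. Autosomal probes with both channels at or below -4 numbered 10, 1097, 6 and 26 on arrays 1 to 4.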
